A study of Mus musculus with 14 samples.

Results

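The genes described here are 10 markers of macrophages and of complement component C1q, and they were chosen by name: *Cd68*, *Adgre1*, *Csf1r*, *Lyz2*, *Cd14*, *Mrc1*, *Cd163*, *C1qa*, *C1qb* and *C1qc*. All 10 were found among the 20515 genes with a usable symbol. They were measured by total RNA-seq of whole mammary tissue on day 10 of lactation (L10) in 2 wt/Wap-Tbrg4 mice, which carry one wild-type allele and one Wap-Tbrg4 allele made by CRISPR/Cas9 in C57BL/6 zygotes. The age of the mice is not given in the sources used here. In the Wap-Tbrg4 allele a deletion joins the first exons of *Wap* and *Tbrg4*, so that the *Wap* promoter and super-enhancer drive *Tbrg4*. No other genotype has RNA values here, so the comparisons are between genes, between exons and introns, and between the 2 mice. The 12 ChIP-seq samples of the study were not analysed here.

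Macrophages are phagocytes that live in every tissue, and in the mammary gland they are found around ducts and alveoli and clear dying epithelial cells after weaning. CSF1 receptor signaling keeps them alive, and their surface receptors recognize microbes, sugars and hemoglobin complexes. They are also a main source of C1q, a protein built from equal numbers of A, B and C chains, which binds antibodies and cell debris and starts the classical complement pathway through the proteases C1r and C1s. In whole tissue, fewer macrophages and less RNA per macrophage cannot be told apart, and several of these genes are also used by other cells.

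*C1qa*, *C1qb* and *C1qc* lie side by side on the minus strand of chromosome 4 of GRCm38 (the assembly called mm10), at 136895916 to 136898844, 136880126 to 136886200 and 136889802 to 136892914, within 18719 bp. *C1qb* and *C1qc* are separated by 3601 bp, and *C1qc* and *C1qa* by 3001 bp. Each has 3 exons. *Lyz2* lies on chromosome 10 at 117277541 to 117282272, also on the minus strand. PU.1, the ETS family factor that myeloid cells depend on, recognizes a core around GAGGAA and AGGAAG. RefSeq promoter windows of GRCm38.p6, 250 bases before the transcription start, were at hand for 6 of the 10 genes. Of these, 4 held GAGGAA or its reverse complement TTCCTC (*C1qb*, *C1qc*, *Cd68* and *Mrc1*), as did 23.3% of all 32851 promoter windows. AGGAAG or its reverse complement CTTCCT was found in 4 (*C1qb*, *C1qc*, *Lyz2* and *Mrc1*), as in 29.5% of all windows. The words overlap when they occur as GAGGAAG. The stretches below, of 100 bases each, hold the matches of the 2 C1q promoters and of *Lyz2*, the most abundant of the 10 genes. They are written 5′ to 3′ on the minus strand with matches in capitals, and lie at chr4:136886201-136886300 for *C1qb*, chr4:136893015-136893114 for *C1qc* and chr10:117282323-117282422 for *Lyz2*, all within 250 bases before the start.
C1qb: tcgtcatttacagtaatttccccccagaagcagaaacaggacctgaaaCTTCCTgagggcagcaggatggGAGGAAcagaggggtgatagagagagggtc
C1qc: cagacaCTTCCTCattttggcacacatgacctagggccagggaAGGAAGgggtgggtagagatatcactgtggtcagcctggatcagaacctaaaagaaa
Lyz2: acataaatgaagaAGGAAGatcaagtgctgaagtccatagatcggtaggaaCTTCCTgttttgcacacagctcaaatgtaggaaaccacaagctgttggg
These matches describe the reference sequence, and no binding at them was measured.

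Expression is given as deposited FPKM, which are reads per kilobase of exons or introns, scaled by the authors with a factor for each library and rounded to 0.1. Read counts were not used here, but short features preserve them, since their FPKM can only take steps of 1 read. With lengths from RefSeq, 1 read was worth 0.1 FPKM over 1 kb in replicate 1 and 0.198 in replicate 2. Of the short features, 89.7% of 58 values in replicate 1 and 82.9% of 41 in replicate 2 were whole multiples of this step within the rounding, compared with 33.8% and 18.1% for values spread evenly. The step was chosen as the value with the largest such excess in these same features, so the excess is no independent check of it. Exons and introns taken alone gave 0.1 and 0.1 in replicate 1 and 0.198 and 0.199 in replicate 2. With these steps the same FPKM rests on 1.98 times as many reads in replicate 1. The exon values amount to about 12010000 reads in replicate 1 and 11220000 in replicate 2. The 7 milk protein genes took 44.1% and 71.3% of them, which left 6720000 and 3220000 reads for all other genes. The scaling thus did not follow the total of exon reads, and ratios between the mice depend on it. Summed exon FPKM were 852961 in replicate 1 and 1788120 in replicate 2, of which the 10 genes made up 0.0196% and 0.00646%. Read numbers below are estimates from this step, and their 95% intervals are exact and cover counting error only, since reads without molecular identifiers are not independent molecules.

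All 10 genes reached an exon FPKM of 1 when averaged over the mice, and they fell into an upper and a lower set of 5. *Lyz2*, C1q and *Cd14* ranged from 14.6 to 36.1 FPKM on average, and the lineage and scavenger receptors from 2.10 to 4.90. *Lyz2*, which encodes lysozyme M, an enzyme that cleaves bacterial cell walls, had an exon FPKM of 35.5 in replicate 1 and 36.7 in replicate 2 (36.1 ± 0.849, SD, n = 2). This mean was above that of 92.4% of the 9845 genes that reached an FPKM of 1. *Cd14*, the co-receptor that hands bacterial lipopolysaccharide to TLR4, had 26.5 and 17.2 FPKM (21.9 ± 6.58, SD, n = 2). The median over the 10 genes was 10.2 in replicate 1 and 9.30 in replicate 2.

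**Figure D1:**
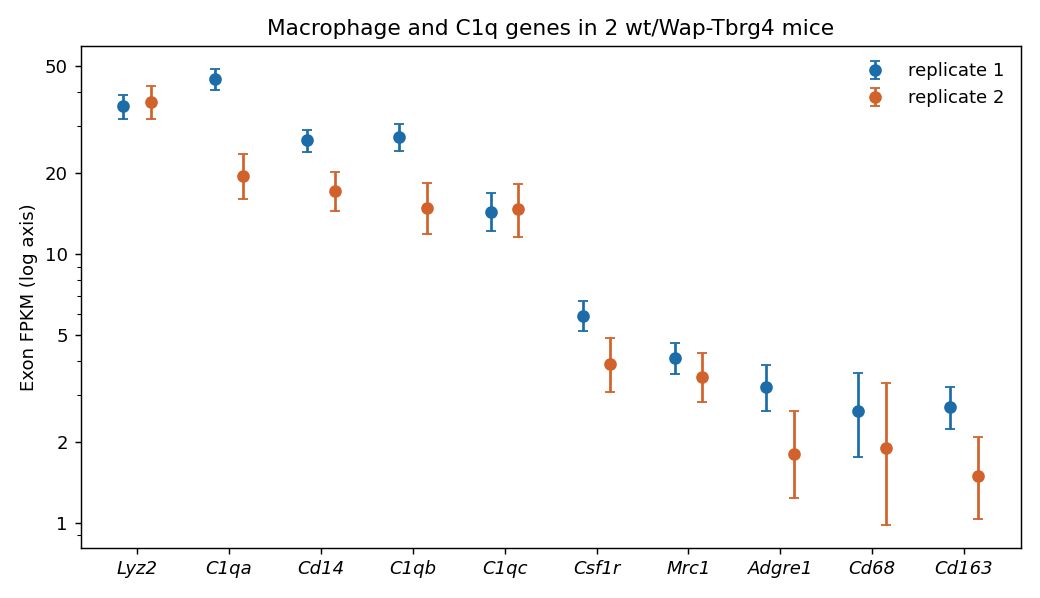
Exon FPKM (log axis) of the 10 genes in replicate 1 (blue) and replicate 2 (orange), ordered by mean. Bars are 95% intervals of counting error, and *C1qa* shows the widest separation of the mice, at 44.8 and 19.6.

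Among the genes that mark or sustain the lineage, *Csf1r*, the receptor for CSF1 and IL-34, had 5.9 and 3.9 FPKM (4.90 ± 1.41, SD, n = 2). *Adgre1*, which encodes the F4/80 antigen, had 3.2 and 1.8. *Cd68*, which encodes a glycoprotein of phagocyte lysosomes, had 2.6 and 1.9. These values rested on about 229 and 76 reads for *Csf1r*, 104 and 30 for *Adgre1*, and 32 and 12 for *Cd68*. The *Cd68* value of replicate 2 thus had an interval from 0.985 to 3.33 FPKM, which contains the value of replicate 1. The scavenger receptors were in the same range. *Mrc1*, the mannose receptor CD206, had 4.1 and 3.5 FPKM, and *Cd163*, the receptor for haptoglobin bound to hemoglobin, had 2.7 and 1.5. The RefSeq annotation places *Mir511* within *Mrc1*, *Mir6983* within *Csf1r*, and *Gm52877* across 9572 bp of *Cd163* on the opposite strand.

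By mean level the order was *Lyz2*, *C1qa*, *Cd14*, *C1qb*, *C1qc*, *Csf1r*, *Mrc1*, *Adgre1*, *Cd68* and *Cd163*. Neighbors in this order were mostly not separated, because the ranges of the 2 mice did not overlap only between *C1qb* and *C1qc*, between *C1qc* and *Csf1r*, and between *Mrc1* and *Adgre1*. The step from *C1qc* to *Csf1r* was the widest of the 9, at 2.97-fold. In replicate 1 *C1qa* was above *Lyz2*, and in replicate 2 it was below, so the top of the order depended on the mouse. No test between genes or groups was made with 2 mice of one genotype.

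The 3 C1q chains were not at the same level. *C1qa* had 44.8 and 19.6 exon FPKM (32.2 ± 17.8, SD, n = 2), *C1qb* had 27.2 and 14.8 (21.0 ± 8.77, SD, n = 2), and *C1qc* had 14.4 and 14.7 (14.6 ± 0.212, SD, n = 2). In replicate 1 the A chain was highest and the C chain lowest, whereas in replicate 2 the B and C chains were level. As shares of summed C1q FPKM, *C1qa* made up 51.9% in replicate 1 and 39.9% in replicate 2, *C1qb* 31.5% and 30.1%, and *C1qc* 16.7% and 29.9%. Shares compare genes within a mouse, so no scaling of the library enters them.

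The ratio of *C1qa* to *C1qc* was 3.11 in replicate 1 (95% counting interval 2.59 to 3.75) and 1.33 in replicate 2 (0.989 to 1.81). It was thus 2.33 times as high in replicate 1 (interval 1.65 to 3.29). The ratio of *C1qb* to *C1qc* was 1.89 (1.55 to 2.31) and 1.01 (0.737 to 1.40), a difference of 1.88-fold between the mice (interval 1.30 to 2.70). The ratio of *C1qa* to *C1qb* was 1.65 and 1.32, and its 1.24-fold difference between the mice had an interval from 0.902 to 1.71, which includes no difference. The exons of the 3 genes have a similar length (1082, 1104 and 1054 bp) and GC content (59.3%, 57.5% and 58.2%). By the ratios above, *C1qc* stood apart from its 2 neighbors in how its level compared between the mice, beyond counting error. The reads of *C1qa*, *C1qb* and *C1qc* numbered 485, 300 and 152 in replicate 1 and 107, 83 and 78 in replicate 2. The cause of this difference was not tested.

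**Figure D2:**
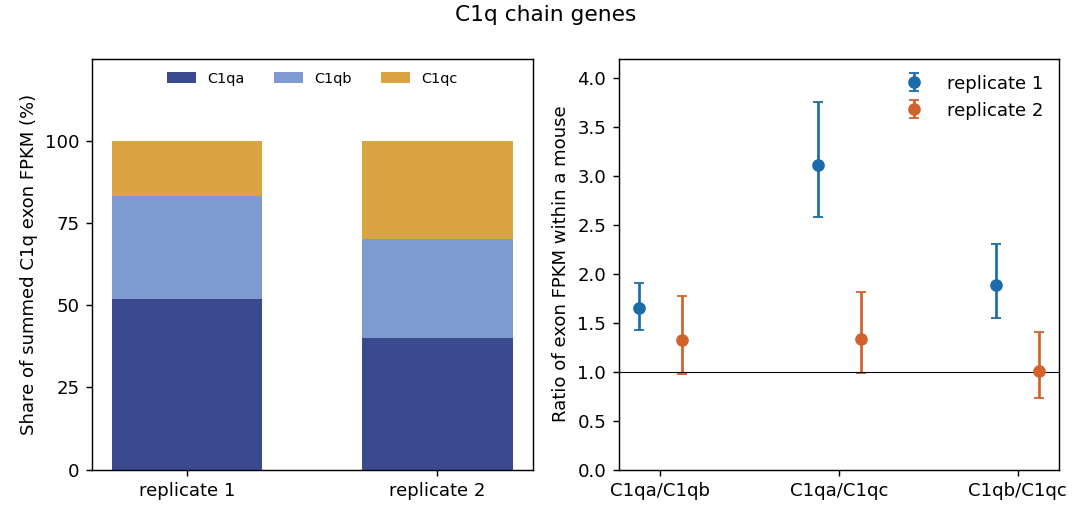
Left, shares (%) of *C1qa*, *C1qb* and *C1qc* in the summed C1q exon FPKM of each mouse. Right, ratios of exon FPKM within a mouse with 95% counting intervals, where a line marks 1 and the ratios to *C1qc* fall from 3.11 and 1.89 in replicate 1 to 1.33 and 1.01 in replicate 2.

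Between the mice, 8 of the 10 genes were lower in replicate 2, compared with 55.4% of the 9845 expressed genes (mean FPKM of 1 or more). The log2 ratio of FPKM + 1, replicate 2 to replicate 1, had a median of -0.53 over the 10 genes and of -0.08 over all 9845. Only *C1qa* differed more than 2-fold on this scale (log2 ratio -1.15), beside 5.9% of all genes past 2-fold and 4.82% past it downward. Its FPKM was 2.29-fold higher in replicate 1 (95% counting interval 1.85 to 2.85). Under the scaling of the deposited FPKM, the exceptions to the lower levels were *Lyz2*, with a log2 ratio of 0.05, and *C1qc*, with 0.03.

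The counting interval of the ratio lay below 1 in 6 of the 10 genes, compared with 30.5% of 9725 genes with a length from RefSeq. These were *C1qa*, *C1qb*, *Cd14*, *Csf1r*, *Adgre1* and *Cd163*. *C1qb* was 1.84-fold higher in replicate 1 (interval 1.43 to 2.36), *Cd163* 1.8-fold (1.22 to 2.71), *Adgre1* 1.78-fold (1.16 to 2.72), *Cd14* 1.54-fold (1.28 to 1.88) and *Csf1r* 1.51-fold (1.17 to 2.0). For *Mrc1* the interval ran from 0.916-fold to 1.51-fold and for *Cd68* from 0.675-fold to 2.87-fold, so a difference was not detectable at this depth. For *Lyz2* it ran from 0.811-fold to 1.15-fold, which excludes a 2-fold difference by counting error under the scaling of the deposited FPKM only. These intervals take that scaling as given, compare 2 libraries of one genotype and say nothing of the spread among mice.

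The difference between the mice moved with the GC content of exons, with a Spearman correlation of -0.658 across 9725 genes of the same pair of libraries. The exons of the C1q genes have a GC content of 57.5% to 59.3%, above the median of 50.2%, and those of *Mrc1* (43.4%), *Adgre1* (47.2%) and *Cd163* (47.9%) lie below it. At the GC content of *C1qa* the trend over all genes amounted to -0.70 on the log2 scale. After it was subtracted, *C1qa* had a log2 ratio of -0.45, and none of the 10 genes (0) differed more than 2-fold, compared with 1.91% of all genes. Of the 10, 8 were again lower in replicate 2, compared with 49.9% of all genes on this scale, and the median was -0.33, compared with 0.00 over all genes. *Adgre1* (-0.64) and *Cd163* (-0.59) then had the lowest values, and *C1qc* the highest (0.65). The share of lower genes among all genes past 2-fold went from 81.8% to 40.9% with this correction.

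**Figure D3:**
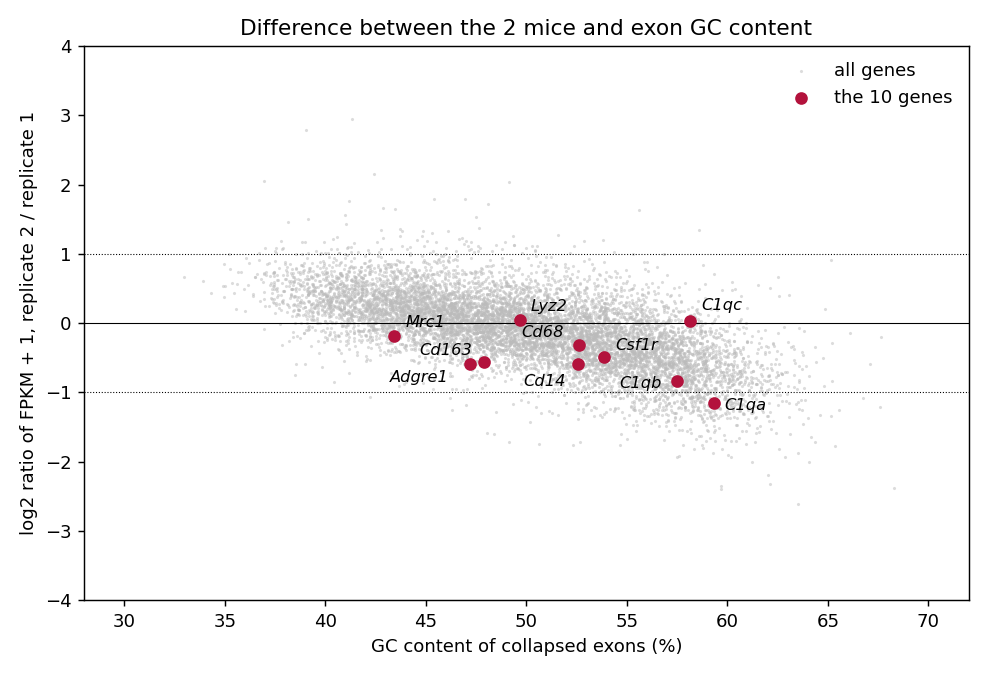
GC content of collapsed exons (%) and log2 ratio of FPKM + 1 between the mice, for expressed genes (grey, 1 beyond the axes) and the 10 genes (red), with dotted lines at 2-fold. The grey cloud slopes down with GC content, with *C1qa* (-1.15) and *C1qb* (-0.84) below its middle and *C1qc* (0.03) above it.

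Reads on introns are taken here as a report of RNA that has not been spliced. The 10 genes had intron FPKM of 0.0 to 0.4, with the exception of *Cd14*, and 6 of them had a value above 0 in both mice. *Lyz2* had 0.2 in replicate 1 and 0.3 in replicate 2, *C1qb* 0.3 and 0.2, and *C1qc* 0.2 and 0.4. These correspond to about 7.4 and 5.6 reads for *Lyz2*, 14.9 and 5.0 for *C1qb*, and 4.1 and 4.2 for *C1qc*. *C1qa* had 0.3 and 0.0, but 0 reads in replicate 2 allow up to 0.322 FPKM, so the mice cannot be told apart. The 2.2 FPKM of *Cd14* in replicate 1 came from 2 reads on its single intron of 91 bp, and the 0.0 in replicate 2 allows up to 6.53.

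Longer introns tell more at the same FPKM. *Mrc1* has 97292 bp of introns, and its 0.1 and 0.2 FPKM stand for about 97 and 98 reads, with a range of 49 to 146 and of 74 to 123 from rounding alone. *Csf1r* had 0.2 in both mice (about 43 and 22 reads) and *Cd163* 0.1 and 0.2 (about 21 and 22 reads). The strand setting of the counts is not given, so the intron reads of *Cd163* may include some from *Gm52877* on the opposite strand. *Adgre1* is listed at 0.0 in both mice, which over its 121599 bp of introns leaves room for up to 61 and 31 reads. Exon FPKM divided by intron FPKM, each averaged over the mice, was 144 for *Lyz2*, higher than in 98.6% of the 9140 genes with such a ratio, whose median was 14.8. It was 84.0 for *C1qb* (96.4%), 48.5 for *C1qc* (90.3%), 25.3 for *Mrc1* (73.7%), 24.5 for *Csf1r* (72.3%) and 14.0 for *Cd163* (47.0%). Some of these moved with the mouse, since the ratio was 27 in replicate 1 and 7.5 in replicate 2 for *Cd163*, 41.0 and 17.5 for *Mrc1*, and 72 and 36.8 for *C1qc*. Among these 6 genes and in either mouse the ratios of the secreted proteins were above those of the receptors, although rounding to 0.1 makes each of them coarse. The receptor gene *Adgre1* is left out of this comparison because its intron values are listed at 0.0. Its ratio has no upper bound and could be as high as that of *C1qc*, so the order may not hold for it.

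The transcripts of *Lyz2* and its neighbor *Lyz1*, the lysozyme of Paneth cells, are 96.0% identical over 1262 aligned bases of GENCODE M21. *Lyz1* had 2.0 and 1.4 exon FPKM, 17.8-fold and 26.2-fold below *Lyz2*. The treatment of reads that map to both is not given in the sources used here, so the split between these genes is uncertain. *Mrc2* and *Pla2r1*, which encode receptors of the same family as *Mrc1*, had 1.2 and 0.8 and 0.6 and 0.4 FPKM.

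Of 26 other macrophage markers, 18 reached a mean FPKM of 1, led by *Apoe* (97.4 and 69.8), *Ctss* (39.0 and 31.0) and *Mpeg1* (8.5 and 11.9), which encode a lipid carrier, a lysosomal protease and a pore-forming protein of phagocytes. *Marco* and *Cybb*, which encode a scavenger receptor and a subunit of the phagocyte oxidase, are listed at 0 in both mice. In this and the following lists, 2-fold refers to the log2 scale of FPKM + 1 and to genes with a mean of 1 or more. Of the 18, 10 were lower in replicate 2, a share close to the 55.4% of all expressed genes, and the median log2 ratio was -0.24. On this scale none (0) was more than 2-fold lower, and *Clec7a*, the beta-glucan receptor, was more than 2-fold higher (3.0 and 7.1), which fell to a log2 ratio of 0.66 with the GC correction. Without the added 1, *Folr2* (4.0 and 1.8), *Clec10a* (2.2 and 0.8) and *Stab1* (2.6 and 1.1) were lower by 2.22-fold, 2.75-fold and 2.36-fold. *Tyrobp* and *Fcer1g*, the signaling adaptors of myeloid receptors, had 6.1 and 11.1 FPKM and 4.7 and 8.3 FPKM, and *Tyrobp* was past 2-fold with the GC correction (1.14). These 5 genes were singled out after their values were seen.

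*Ptprc*, which encodes the pan-leukocyte antigen CD45, was level at 3.0 and 3.2 FPKM. Of 9 monocyte and leukocyte genes, 7 reached an FPKM of 1, and *Plac8* (4.1 and 1.4) and *Coro1a* (4.4 and 1.5) were more than 2-fold lower in replicate 2. With the GC correction *Plac8* kept this call, with a log2 ratio of -1.20, and *Coro1a*, at -0.46, did not. *F13a1*, coagulation factor XIII A of monocytes and macrophages, had 4.2 and 2.2. Most markers of other leukocytes did not reach a mean of 1. Of 10 neutrophil markers, 1 reached a mean of 1 (*S100a8*, 0.5 and 2.5, about 2 and 5 reads, more than 2-fold apart, with a log2 ratio of 1.22 that became 0.96 with the GC correction). *S100a9* had 0.9 and 0.7 and *Csf3r* 0.2 and 0.2, and 4 were listed at 0 in both mice. *Zbtb46* (1.5 and 1.0, about 50 and 17 reads) was the 1 of 6 dendritic cell markers that did so, ahead of *Siglech* (0.3 and 0.9) and *Cd209a* (0.4 and 0.6). None (0) of 8 T and NK cell markers had a mean of 1. The highest by mean were *Nkg7* (0.2 and 1.7), *Cd4* (0.3 and 0.3) and *Klrb1c* (0.3 and 0.2) of T and NK cells. The B cell genes *Cd79b* and *Cd79a* had 1.2 and 0.5 and 0.0 and 0.4 FPKM. Of 5 mast cell markers, 3 reached a mean of 1, namely *Mcpt4* (2.1 and 1.0), *Cma1* (1.5 and 1.3) and *Cpa3* (0.5 and 1.6). Summed over each list, FPKM were 1.9 and 3.5 for neutrophils and 1.2 and 3.2 for T and NK cells. The sums were 22.3 and 14.6 for the monocyte and leukocyte genes and 166.9 and 115.6 for the 10 genes. *Lyz2*, *Cd14* and C1q carried most of the last sum. The lists hold different genes, so their sums do not compare numbers of cells.

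Some markers of other cells of the gland also differed between the mice. The epithelial keratins *Krt8* (31.4 and 14.6) and *Krt18* (145 and 57.6) were more than 2-fold lower in replicate 2, as were *Col1a1* of fibroblasts (23.5 and 11.2) and *Plin1* of adipocytes (7.8 and 2.6), all with exon GC content of 56.4% to 61.3%. None of these 4 calls was left with the GC correction, where the log2 ratios were -0.53 for *Krt8*, -0.84 for *Krt18*, -0.33 for *Col1a1* and -0.46 for *Plin1*. The remaining leading markers stayed within 2-fold. *Elf5* (185.8 and 204.8) and *Epcam* (134 and 112) stood for the epithelium, *Cdh5* (17.3 and 17.4), *Pecam1* (14.8 and 13.1) and *Kdr* (14.0 and 9.6) for the endothelium, *Dcn* (42.9 and 78.4) and *Col3a1* (71.2 and 43.6) for fibroblasts, and *Fabp4* (501.7 and 564) and *Adipoq* (85.3 and 113) for adipocytes. Most milk protein genes moved the other way, and 5 of 7 were more than 2-fold higher in replicate 2 (*Csn2*, *Csn3*, *Csn1s1*, *Csn1s2b* and *Csn1s2a*). *Lalba* was level (8453.5 and 8265.4, log2 ratio -0.03). The log2 ratio was 2.15 for *Csn2*, 1.44 for *Csn1s2a* and 0.44 for *Wap*. The part of cell composition and of milk transcripts in the lower values of the 10 genes was not tested.

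The ligands of the CSF1 receptor were unequal. *Csf1* had 7.5 and 9.0 FPKM, 1.27-fold and 2.31-fold the level of *Csf1r*, whereas *Il34* had 0.9 and 0.7. *Spi1*, which encodes PU.1, had 1.1 and 0.8, about 18 and 6 reads. *Runx1*, another hematopoietic factor, had 2.2 and 2.5. Of the 5 genes of this axis with values, *Csf1* and *Runx1* reached a mean of 1, and neither was past 2-fold (0 in each direction). *Irf8*, a factor of monocytes and dendritic cells that was below this mean, had 0.9 and 0.3 FPKM, 3.0-fold higher in replicate 1 (interval 1.21 to 10.3).

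The genes that work with *Cd14* were well expressed, and 11 of 13 reached a mean of 1. *Lbp*, which encodes the serum protein that delivers lipopolysaccharide to CD14, had 83.0 and 80.0 FPKM, *Tlr2* had 55.9 and 58.0, and *Irak1*, a kinase downstream of both receptors, had 36.5 and 30.5. *Tlr4* had 10.9 and 17.1, and its partner *Ly96* (MD-2) 8.4 and 14.3, while *Cd14* had 26.5 and 17.2. Thus *Cd14* exceeded *Ly96* 3.15-fold in replicate 1 and 1.2-fold in replicate 2, and *Tlr4* was 0.411 and 0.994 times *Cd14*. The exons of *Tlr4* and *Ly96* have a GC content of 38.4% and 39.5%, and those of *Cd14* 52.6%. *Tlr6* (0.5 and 4.2) was the 1 gene of the list past 2-fold. Of the genes that handle the cargo of CD163, *Hp* (haptoglobin) had 12.6 and 7.0 FPKM, and the ferritin chains *Fth1* and *Ftl1* had 405 and 585 and 133 and 87.4. Of the 7 genes listed there, 6 reached a mean of 1, and none of these differed more than 2-fold (0 in each direction).

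In the complement pathway, *C1qa*, *C1qb* and *C1qc* stood above the proteases that complete C1. *C1s1* had 6.9 and 9.9 FPKM and *C1ra* 2.2 and 1.9, so that *C1qa* was 6.49-fold and 1.98-fold above *C1s1*. The copies *C1s2* (2.3 and 1.5) and *C1rb* (listed at 0 in both) are 95.9% and 98.0% identical to *C1s1* and *C1ra* over their aligned transcripts, so these values are uncertain. *C2*, cleaved by C1s, had 3.3 and 2.3, and *C4b*, the other substrate, is listed at 0 in both mice, with *C4a* at 0.1 and 0.1. *C4a* and *C4b* are related genes, and the identity of their transcripts was not obtained here. The treatment of reads that map to both is not given, so these low values are uncertain as well. *Fcna*, which encodes ficolin A of the lectin pathway, had 10.0 and 6.8. Of the 13 genes of the classical and lectin pathways besides C1q, 6 reached a mean of 1, and none of these differed more than 2-fold (0 in each direction).

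Downstream, *C3*, on which all complement pathways converge, had 28.2 and 32.0 FPKM. *Cfd*, the adipsin of adipocytes, had 692 and 437, and *Cfb* had 4.5 and 3.2. *Cfp* (properdin) is listed at 0 in both mice, and 5 of the 11 genes of C3, the alternative and the terminal pathway reached a mean of 1. Regulators were led by *Clu* (clusterin), at 791 and 780, *Serping1*, the inhibitor of C1r and C1s, at 11.2 and 12.4, and *Cd55*, which dissociates C3 convertases, at 8.0 and 14.2. *Cd59a*, which blocks the terminal complex, was the 1 regulator past 2-fold (3.2 and 7.5), and had a log2 ratio of 0.81 with the GC correction. The 7 regulators with a mean of 1 had a median log2 ratio of 0.40, and 1 of them was lower in replicate 2, beside 55.4% of all expressed genes. Among receptors and proteins that bind C1q, *Calr* had 269.9 and 195.8, *C1qbp* 10.1 and 16.2, and *Lrp1* 10.6 and 5.3, a log2 ratio of -0.88. Of 10 such genes, 7 reached a mean of 1, and none was past 2-fold on the log2 scale of FPKM + 1 (0 in each direction).

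**Figure D4:**
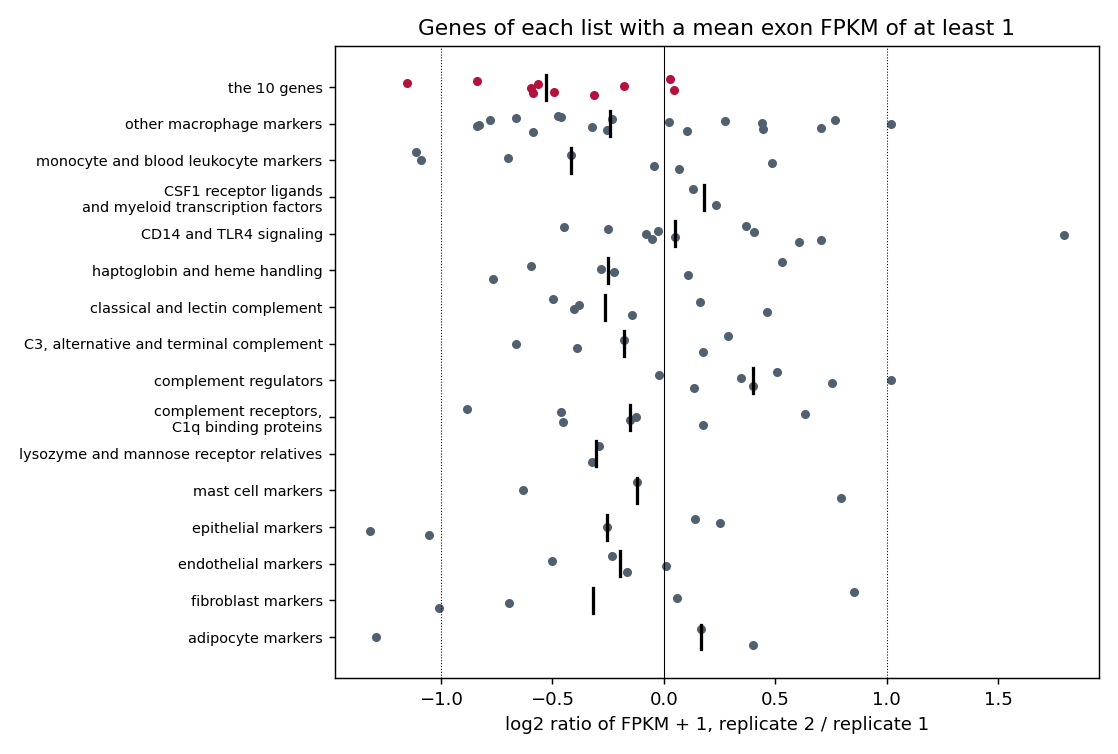
log2 ratio of FPKM + 1, replicate 2 to replicate 1, for expressed genes grouped by list (milk proteins and lists with fewer than 2 such genes left out), with black bars at medians and dotted lines at 2-fold. The 10 genes (red) have a median of -0.53 and the complement regulators one of 0.40.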

How the data were processed

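Total RNA from 2 L10 mammary glands was prepared by the authors with a TruSeq Stranded Total RNA kit and sequenced on an Illumina HiSeq. Per the labels and methods, reads were mapped to mm10 with STAR, counted with HTSeq on collapsed exons of UCSC known genes and the introns between them, and converted to FPKM with DESeq2. The deposited FPKM have 1 decimal, and the STAR version, the strand setting and the treatment of reads mapping to several places are not given in the sources used here. Of 20550 listed genes, 35 without a usable symbol were left out.

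The FPKM were used without rescaling. Lengths, GC content and positions came from curated RefSeq transcripts of GRCm38.p6 (98.1% of genes), which may differ from the gene models of the authors. Reads were estimated from features of 60 to 420 bp, with a tolerance of the rounding plus 0.002 FPKM × kb, and intervals are exact Poisson or Clopper-Pearson intervals. The interval of a difference between 2 ratios uses the normal approximation on the log scale. A count of 0 was taken to allow 3 reads. The log2 ratio of FPKM + 1 between mice was taken over genes whose exon FPKM averaged 1 or more. The GC trend is a lowess fit over 30% of genes. Transcripts were aligned locally with Biopython 1.88. The step, the GC correction and the intervals were tested on simulated data. The 10 genes and all lists were chosen with earlier results of these data known. The text names these genes, the 3 highest genes of each list and list genes past 2-fold, and adds others singled out after their values were seen. Some items that the rule or lists hold are not reported here. Alternatives to scaling, pseudocount, filter, mean and GC correction were tried. Scripts ran in Python 3.11.15 with scipy 1.17.1, statsmodels 0.14.6, numpy 2.4.6, matplotlib 3.10.9 and pandas 2.3.3.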

Additional observations from a re-analysis of the deposited data

How the results depend on the processing

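No paired analysis was possible because the 2 mice form 1 group and no result comes from a test. Of 28 alternatives for the summary values, 21 left them the same (within 1 SD of the mice, within 1.5-fold for a count or within 0.1 for a log2 value), and 7 moved them. The median exon FPKM of the 10 genes became 8.55 with each mouse rescaled to a sum of 1000000 and 56.6 with that sum set outside the 10 highest genes, where levels change by construction. With the GC correction, the number of genes more than 2-fold apart went from 1 to 0, and the median log2 ratio from -0.53 to -0.33. The median intron FPKM, 0.175, became 0.185 after rescaling to a sum of 10000 and 0.2 without either mouse (0.2 to 0.2), where the SD of the medians was 0. Of 90 alternatives for single genes, 74 left the value the same, 15 moved it, and 1 was weaker (*C1qa*, -0.45 with the GC correction). With 2 mice, leaving out either mouse or taking the geometric mean always stays within 1 SD for a gene's level. These alternatives were therefore bound to count as the same, also for the median exon FPKM, and they are no evidence of stability. The C1q shares and the median exon to intron ratio without either mouse were also judged against the SD of the same 2 mice. Large changes thus counted as the same. The *C1qc* share of 21.5% became 29.9% without replicate 1 and 16.7% without replicate 2, and the ratio of 36.9 became 28.1 and 56.5. None (0) of the 10 log2 ratios changed sign under any of the 4 alternatives run for it. A change of pseudocount cannot change a sign, so only the other alternatives bear on this. Rescaling to the summed exon FPKM, which was run for levels, was not run for these ratios. The sums were 852961 in replicate 1 and 1788120 in replicate 2, so it would lower all 10 ratios. *Lyz2* and *C1qc* would then change sign and be lower in replicate 2, so the signs of these genes depend on the scaling. Over all genes, 581 were past 2-fold, 529 after centring, 1001 rescaled outside the 10 highest genes, 1102 with a pseudocount of 0.1 and 186 with the GC correction, of which 81.8%, 73.7%, 75.1%, 79.6% and 40.9% were lower in replicate 2. The estimated depth limits *Cd68*, *Adgre1*, *Cd163* and all short introns.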
